A study of Ovis aries with 15 samples.

Results

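A set of 5 genes of myeloid immune cells was followed in the kidney cortex of fetal sheep: the Fc receptors FCGR1A and FCGR2B, the Fc receptor adaptor FCER1G, the costimulatory ligand CD86 and the lectin receptor CLEC6A. They were taken by gene name from the array annotation, and every probe of each gene was used, giving 8 of the 15008 probes on the array and 5 of its 977 named genes. No probe carried the name CD86, and its 2 probes, listed under a locus number, were named through their transcript accession in RefSeq. The tissue came from 15 catheterised fetuses at 125 d of gestation, with 1 array per fetus, so the spread is that between fetuses and the number of arrays limits the precision. Hypoxia ketamine fetuses (4) received ketamine, an anaesthetic and antagonist of NMDA glutamate receptors, at 3 mg/kg 10 min before the mother was ventilated to make the fetus hypoxic for 30 min. Hypoxia vehicle fetuses (4) had the same exposure after saline. Normoxia ketamine fetuses (4) and normoxia vehicle fetuses (3) received the drug or saline before 30 min of normoxia. Cortex was taken 24 h after the exposure began, so all values describe that single time.

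Fc receptors bind the constant part of antibodies. In humans and mice FCGR1A is the high-affinity IgG receptor and FCGR2B the inhibitory one, and FCER1G is the small adaptor chain whose cytoplasmic tyrosine motif carries the activating signal for FCGR1A and for CLEC6A, also called dectin-2, which recognises mannose-rich fungal glycans. CD86 is the ligand on antigen-presenting cells for CD28 and CTLA4 on T cells. In the kidney these genes are known chiefly from resident macrophages, dendritic cells and infiltrating monocytes. In whole cortex, a change in the number of such cells and a change in RNA per cell cannot be told apart.

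Each probe was a DNA oligonucleotide of 60 bases, with its sequence and position in the target transcript given by the array's design columns. The sequences shown are those of FCGR1A, read by a single probe, and of CD86 and CLEC6A, each read by a pair of probes that lie on different stretches of the transcript and share 0 bases end to end, so that agreement within a pair is not agreement of one sequence with itself. FCGR2B had 1 probe, starting at base 1228 of its target transcript, and the FCER1G pair shared 59 of 60 bases, starting at bases 565 and 566, so these 2 probes count as a single reading.
FCGR1A, probe A_70_P013681, from base 716: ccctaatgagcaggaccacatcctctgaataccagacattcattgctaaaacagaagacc
CD86, probe A_70_P030341, from base 934: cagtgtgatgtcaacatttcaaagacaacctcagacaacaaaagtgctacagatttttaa
CD86, probe A_70_P030342, from base 835: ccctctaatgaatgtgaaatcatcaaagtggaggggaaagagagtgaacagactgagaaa
CLEC6A, probe A_70_P008211, from base 468: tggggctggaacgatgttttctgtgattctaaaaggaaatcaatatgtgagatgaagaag
CLEC6A, probe A_70_P008212, from base 398: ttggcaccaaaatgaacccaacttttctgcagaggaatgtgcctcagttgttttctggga

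All 8 probes passed the filter on dim signal and none was saturated on any array. The dimmer CD86 probe was well above background on 14 of the 15 arrays and the other 7 probes on all. The log2 signals of the 2 CD86 probes correlated at r = 0.966 over the 15 arrays, those of the 2 CLEC6A probes at 0.994 and those of the 2 FCER1G probes at 0.993. Values below are those of the brightest probe of each gene unless the other is named, as scaled intensity: the scanner signal after each array was brought to a common 75th percentile, in arbitrary units. Levels of different genes were not compared, since each probe has its own brightness.

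The unscaled 75th percentile ran from 1064 to 1425 over the arrays, and 75.6% to 85.2% of probes were well above background. Kidney markers were present on every array: SLC34A1, the phosphate transporter of the proximal tubule, WT1, a podocyte transcription factor, and the water channels AQP1 and AQP2 were well above background on all 15. Arrays were less alike within the hypoxic groups, where hypoxia ketamine replicate 2 (median correlation 0.972) and hypoxia vehicle replicate 4 (0.956) were each the least like the rest of their group; these 2 are called the arrays that stood apart. Placental lactogen, a hormone of the placenta, was well above background on hypoxia ketamine replicate 2 (17.3) and on normoxia ketamine replicates 1 (159.7) and 2 (127), against 2.12 to 5.24 on the other arrays. Of 8 placental genes measured, 2 fell with hypoxia in ketamine fetuses and 2 rose with ketamine in normoxic fetuses. In the authors' deposited value table, 12 of 15 columns were most like a different scanner file than the one under their own name, always from the same group, and replicate numbers here are those of the scanner files.

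The first question was how the 5 genes differed after hypoxia in fetuses given saline. Every one of them was higher. FCGR1A rose 5.45-fold, FCGR2B 4.71-fold, CLEC6A 3.93-fold, CD86 3.14-fold and FCER1G 2.05-fold. The words "rose", "fell" and "passed" are used of a limma p, before adjustment, no higher than 0.05, the study's own threshold, and log2 differences are given ± SE with 95% intervals. Across all 12927 probes tested, 5.77% rose in this comparison, and the median log2 difference was 1.98 for the 5 genes, against -0.053 for all probes. In all 5 the lowest hypoxic fetus lay above the highest normoxic fetus, which held for 5.04% of all probes. The 5 genes were chosen with earlier results of these data known. The shares over all probes, here and below, are therefore no independent test of the 5.

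FCGR1A measured 117, 308, 367 and 441 in hypoxia vehicle replicates 1 to 4, against 66.4, 45.6 and 43.0 in normoxia vehicle replicates 1 to 3. The log2 difference was 2.45 ± 0.54 (1.28 to 3.61, adjusted p = 0.129 in limma). Replicates 2 to 4 were far above the normoxic range and replicate 1 was closer to it.

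FCGR2B, the inhibitory receptor, measured 74.8, 119, 397 and 64.2 in hypoxia vehicle fetuses, against 24.5, 16.7 and 43.1 in normoxia vehicle fetuses. Its log2 difference of 2.24 ± 0.70 (0.72 to 3.75, adjusted p = 0.178 in limma) was 1.67 without hypoxia vehicle replicate 3, which stood highest by a wide margin, and it remained past the threshold. The activating and the inhibitory IgG receptor were thus both higher after hypoxia.

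FCER1G, the adaptor chain of FCGR1A, measured 692, 1233, 2616 and 1158 in hypoxia vehicle fetuses, against 657, 611 and 588 in normoxia vehicle fetuses. FCER1G rose by 1.04 ± 0.39 on the log2 scale (0.19 to 1.88, adjusted p = 0.237 in limma). The groups were separated by a narrow margin, with hypoxia vehicle replicate 1 just above the 3 normoxia vehicle fetuses. FCER1G did not pass without hypoxia vehicle replicate 3 (0.69) or normoxia vehicle replicate 3 (1.0).

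CD86 measured 246, 425, 690.4 and 285 in hypoxia vehicle fetuses, against 103, 114 and 149 in normoxia vehicle fetuses. Its log2 difference was 1.65 ± 0.42 (0.74 to 2.56, adjusted p = 0.159 in limma). The second CD86 probe, on another stretch of the transcript, measured 46.8, 68.4, 95 and 45.0 in hypoxia vehicle fetuses, against 11, 17.5 and 20.6 in normoxia vehicle fetuses, with a log2 difference of 1.94 (adjusted p = 0.0832 in limma). Both readings put every hypoxic fetus above every normoxic one.

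CLEC6A measured 287, 1057, 458 and 796 in hypoxia vehicle fetuses, against 145, 188 and 116 in normoxia vehicle fetuses. This was a log2 difference of 1.98 ± 0.60 (0.69 to 3.26, adjusted p = 0.173 in limma), and that of the second CLEC6A probe was 2.10. Hypoxia vehicle replicate 1 was again the lowest of its group.

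After Benjamini-Hochberg adjustment over all probes 0 of the 5 genes were at or under 0.05, although all 5 were before it, and 2 probes of the whole array were (0.0155%). Within slide 1 the 5 log2 differences were 0.91 to 2.74 and 3 genes rose, beside 3.81% of all probes. Within slide 2 they were 1.19 to 2.27 and CLEC6A alone rose, beside 2.55% of all probes. The normoxia vehicle group had a single array on slide 2, assumed in that fit to vary like the other groups.

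**Figure D1:**
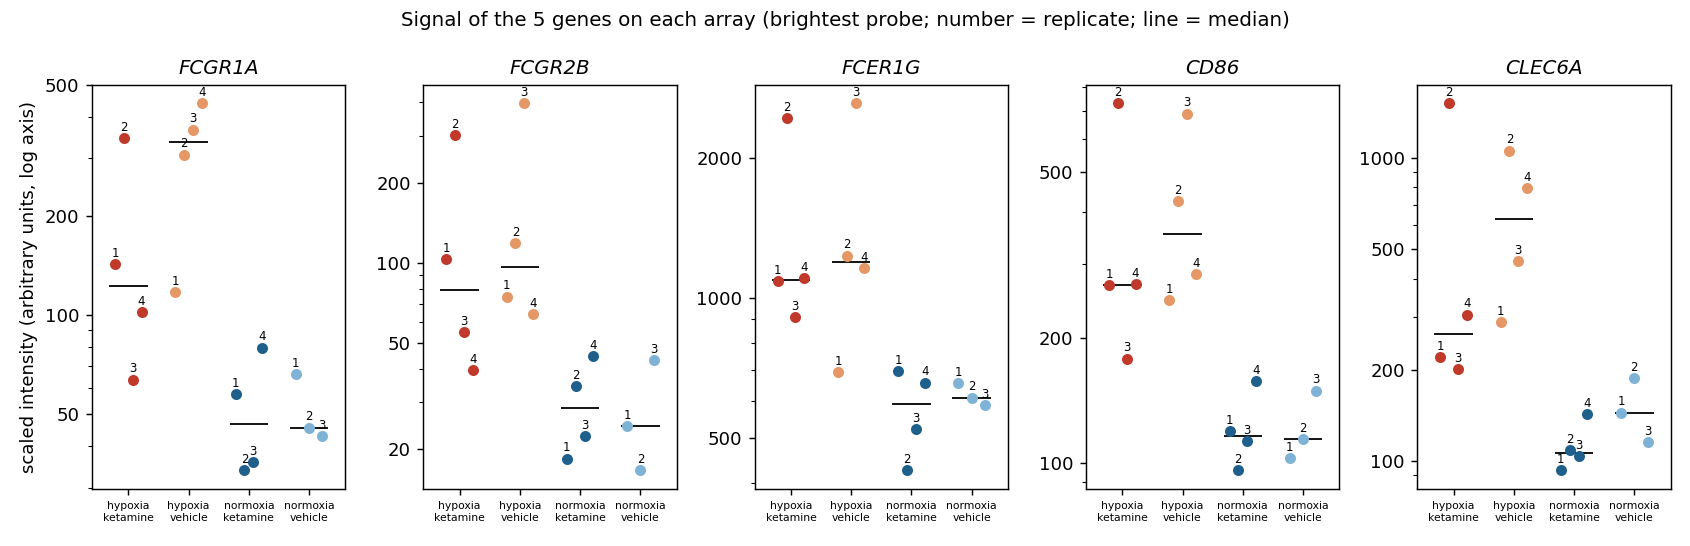
Scaled intensity (arbitrary units, log axis) of the brightest probe of each gene on all 15 arrays; each point is 1 fetus labelled with its replicate number, and the line is the group median. In the hypoxia vehicle group every fetus lies above every normoxia vehicle fetus for all 5 genes, and hypoxia ketamine replicate 2 is the highest of its group in every panel.

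The same question in fetuses given ketamine compared 4 hypoxic with 4 normoxic fetuses that share no array with the first comparison, although the fit took 1 spread per probe from all 15. All 5 genes rose here too. CLEC6A was 3.40-fold higher, FCGR2B 3.21-fold, FCGR1A 2.76-fold, CD86 2.60-fold and FCER1G 2.25-fold. Of all probes 3.71% rose, and the median log2 difference was 1.46 for the 5 genes, against -0.024 for all probes. In 3 of the 5 (FCER1G, CD86 and CLEC6A) the groups did not overlap, as in 2.82% of all probes, and in both IgG receptors they did.

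FCGR1A measured 143, 346, 63.8 and 102 in hypoxia ketamine fetuses, against 57.7, 33.8, 35.9 and 79.8 in normoxia ketamine fetuses. The log2 difference was 1.46 ± 0.50 (0.38 to 2.54, adjusted p = 0.422 in limma). Hypoxia ketamine replicate 3 lay below normoxia ketamine replicate 4, so the groups overlapped at that point.

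FCGR2B measured 104, 301, 55.1 and 39.6 in hypoxia ketamine fetuses, against 18.5, 34.6, 22.5 and 44.9 in normoxia ketamine fetuses. Its log2 difference was 1.68 ± 0.65 (0.28 to 3.08, adjusted p = 0.502 in limma). It did not pass without hypoxia ketamine replicate 2 (1.1), normoxia ketamine replicate 1 (1.47) or normoxia ketamine replicate 3 (1.57). None of the other 4 rises in ketamine fetuses was lost by leaving out 1 array.

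FCER1G measured 1084, 2427, 909.8 and 1101 in hypoxia ketamine fetuses, against 696, 427, 523 and 658 in normoxia ketamine fetuses. It rose by 1.17 ± 0.36 on the log2 scale (0.39 to 1.96, adjusted p = 0.366 in limma). All 4 hypoxic fetuses lay clear of the normoxic range.

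CD86 measured 268, 731, 178 and 269 in hypoxia ketamine fetuses, against 119, 96.2, 113 and 157 in normoxia ketamine fetuses. Its log2 difference was 1.38 ± 0.39 (0.53 to 2.23, adjusted p = 0.330 in limma), and that of the second CD86 probe was 1.30. The 2 groups were again separate, with hypoxia ketamine replicate 3 nearest to the normoxic fetuses.

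CLEC6A measured 220.0, 1512, 202 and 304 in hypoxia ketamine fetuses, against 93.5, 109, 104 and 143 in normoxia ketamine fetuses. This was a log2 difference of 1.77 ± 0.55 (0.57 to 2.96, adjusted p = 0.366 in limma), and 1.66 for the second CLEC6A probe. Hypoxia ketamine replicate 2 stood far above the other 3 hypoxic fetuses, and those 3 were still above the whole normoxic group.

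After adjustment 0 of these 5 rises and 0 probes of the array (0%) were at or under 0.05 in limma. Before it 5 and 1121 were, the probes counted in either direction. Within slide 1 the log2 differences were 1.59 to 2.75 and 4 genes rose, beside 2.2% of all probes. Within slide 2 they were 0.71 to 1.25 and CLEC6A alone rose, beside 4.22% of all probes. Without the 3 arrays that carried placental lactogen, which include hypoxia ketamine replicate 2 and leave 3 against 2 fetuses, the differences were 0.81 to 0.96 and 0 of 5 passed, against 3.48% of all probes that rose. The part of placental RNA in these values was not tested.

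Over both drug arms, CD86 and CLEC6A separated all 8 hypoxic from all 7 normoxic fetuses, which 0.364% of all probes did in the same direction. CD86 was 178 to 731 in hypoxic fetuses, against 96.2 to 157 in normoxic fetuses, and CLEC6A was 202 to 1512 in hypoxic fetuses, against 93.5 to 188 in normoxic fetuses. The second probe of each gene separated them as well. For FCGR1A, FCGR2B and FCER1G, 7 of the 8 hypoxic fetuses were above every normoxic fetus. The exception was hypoxia ketamine replicate 3 for FCGR1A, hypoxia ketamine replicate 4 for FCGR2B and hypoxia vehicle replicate 1 for FCER1G. The share of all probes that meet this looser rule was not counted, and the 0.364% does not apply to it.

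**Figure D2:**
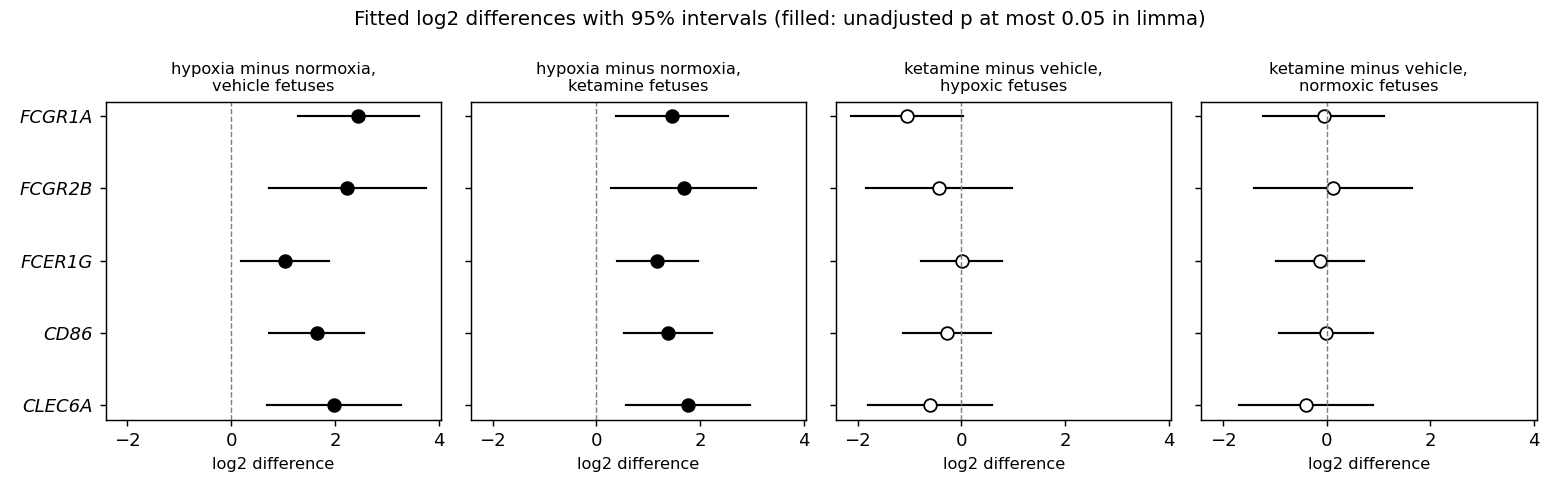
Fitted log2 differences (points) with 95% intervals (bars) for the 5 genes in 4 comparisons; filled points have a limma p, before adjustment, no higher than 0.05. All 10 hypoxia differences lie between 1.04 and 2.45, and all 10 ketamine differences have intervals that include 0.

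The third comparison asked whether ketamine lowered these genes in hypoxic fetuses. With all arrays in the fit, 0 of the 5 genes passed in either direction, against 6.07% of all probes, and 0% of probes passed after adjustment. The median log2 difference was -0.43 for the 5 genes and 0.020 for all probes. FCGR1A had the largest difference, -1.04 ± 0.50 (-2.13 to 0.036, adjusted p = 0.804 in limma), with a median of 123 in hypoxia ketamine fetuses and 337 in hypoxia vehicle fetuses. CLEC6A differed by -0.61 ± 0.55 (-1.80 to 0.58), with medians of 262 in hypoxia ketamine and 627 in hypoxia vehicle fetuses. FCGR2B differed by -0.43 (-1.84 to 0.97), CD86 by -0.28 (-1.13 to 0.56) and FCER1G by 0.0073 (-0.78 to 0.79). These intervals are wide: their lower ends correspond to 0.229 to 0.584 of the vehicle level, and all 5 include equal levels. The second CD86 probe showed a larger difference than the first, -0.67 (-1.40 to 0.064), which did not pass either. The second CLEC6A probe differed by -0.61 and the second FCER1G probe by -0.033.

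Which genes passed in this comparison depended most on a single fetus. Hypoxia ketamine replicate 2 was the highest of its group for all 5 genes, at 346 for FCGR1A against at most 143 in the other 3, and at 1512 for CLEC6A against at most 304. Without it, 3 of the 5 genes fell, beside 6.23% of all probes that did so. FCGR1A was then lower by a log2 difference of -1.50 ± 0.45, CLEC6A by -1.28 ± 0.37 and CD86 by -0.69 ± 0.31. FCGR2B differed by -1.01 ± 0.59 and FCER1G by -0.30 ± 0.33, which did not pass. This fetus is kept in every main value; it had placental lactogen at 17.3, against 2.21 to 5.24 in the other hypoxia ketamine fetuses.

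Leaving out any other single array changed fewer calls, though not always the differences. Without hypoxia vehicle replicate 3 they moved upward, to 0.13 for FCGR2B, 0.36 for FCER1G and 0.0053 for CD86, and none passed. Without hypoxia vehicle replicate 1, the lowest of its group for 4 of the 5 genes, FCGR1A alone fell (-1.46), beside 2.61% of all probes, and without any 1 of the other arrays 0 genes passed. Without both arrays that stood apart from their groups, hypoxia vehicle replicate 4 and hypoxia ketamine replicate 2, 4 genes fell (FCGR1A -1.28, FCGR2B -1.32, CD86 -0.83 and CLEC6A -1.12), beside 5.34% of all probes, and FCER1G differed by -0.35. Within slide 1 the log2 differences were -0.97 to 0.45 and 0 genes fell, beside 1.18% of all probes. Within slide 2, which does not hold hypoxia ketamine replicate 2, they were -1.19 to -0.44 and CLEC6A alone fell, beside 3.1% of all probes.

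**Figure D3:**
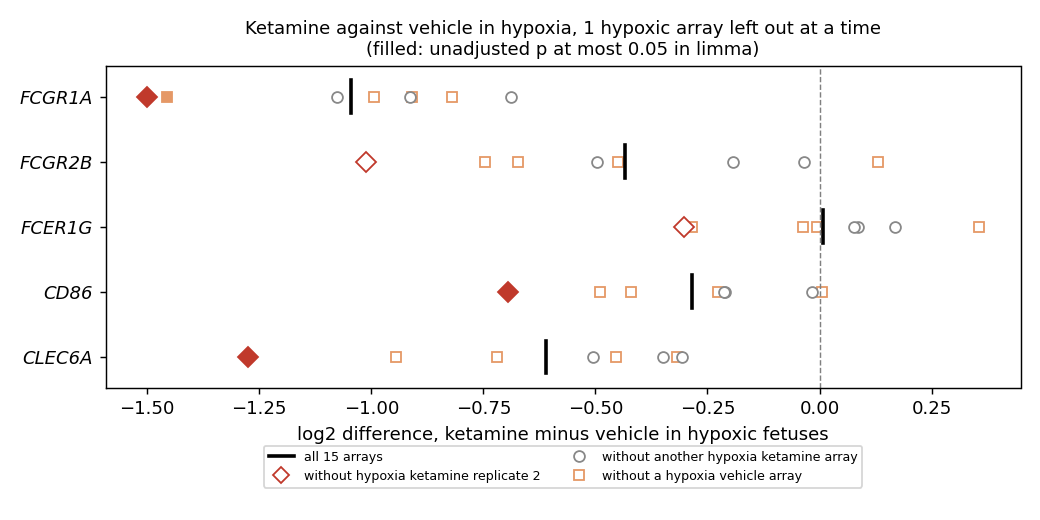
Log2 difference between hypoxia ketamine and hypoxia vehicle fetuses for each gene with all 15 arrays (black bar) and with each of the 8 hypoxic arrays left out (symbols; filled where the limma p, before adjustment, was no higher than 0.05). Leaving out hypoxia ketamine replicate 2 moves FCGR1A, CD86 and CLEC6A past the threshold, at -1.50, -0.69 and -1.28.

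In normoxic fetuses no difference with the drug was detectable in the 5 genes. None of the 5 passed, against 2.71% of all probes, and 0% of probes passed after adjustment. The log2 differences ran from -0.40 (CLEC6A, -1.69 to 0.89) to 0.12 (FCGR2B, -1.39 to 1.64), with FCGR1A at -0.060, CD86 at -0.013 and FCER1G at -0.13. The intervals run from 0.427 to 2.15 times the vehicle level for FCGR1A and from 0.381 to 3.11 times for FCGR2B, so equal levels were not shown.

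The interaction asked directly whether the hypoxic rise differed between ketamine and vehicle fetuses. It passed for 0 of the 5 genes, against 3.15% of all probes (0% after adjustment). The largest value was that of FCGR1A, -0.98 (-2.58 to 0.61, adjusted p = 0.989 in limma), and the others ran from -0.56 (FCGR2B) to 0.14 (FCER1G). CD86 was at -0.27 and its second probe at -0.64 (-1.72 to 0.43). CLEC6A was at -0.21 and its second probe at -0.44 (-2.09 to 1.21). Without hypoxia ketamine replicate 2 the FCGR1A value was -1.44 ± 0.63, and it was then the only one of the 5 to pass, beside 7.63% of all probes.

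On the log2 scale the order of the group means was hypoxia vehicle, hypoxia ketamine, normoxia vehicle and normoxia ketamine for FCGR1A, CD86 and CLEC6A. For FCGR2B the 2 normoxic groups changed places, and for FCER1G the 2 hypoxic groups did. Hypoxia ketamine minus hypoxia vehicle was only 0.0073 for FCER1G, and its second probe gave the reverse order (-0.033). The step between the lower hypoxic and the higher normoxic mean was 1.04 to 1.68 and exceeded the larger SD of its 2 groups for every gene. The step between the hypoxic groups did so for FCGR1A alone (1.04, SDs 1.03 and 0.85), and that between the normoxic groups for CLEC6A alone (0.40, SDs 0.26 and 0.35). The second CLEC6A probe did not bear out the latter. Its normoxia ketamine minus normoxia vehicle difference was -0.17, with SDs 0.18 and 0.14.

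The hypoxic fetuses also varied more among themselves. The SD of the log2 signal over the 5 genes was 0.63 to 1.36 in hypoxia ketamine and 0.67 to 1.19 in hypoxia vehicle fetuses, against 0.26 to 0.59 in normoxia ketamine and 0.081 to 0.69 in normoxia vehicle fetuses. Since 1 variance per probe was shared by all groups, the errors given for differences within hypoxia may understate that variation. Within the hypoxia vehicle group the 5 genes did not share their highest fetus: it was replicate 3 for FCGR2B, FCER1G and CD86, replicate 4 for FCGR1A and replicate 2 for CLEC6A. Replicate 4, with the most FCGR1A of any fetus (441), had the least FCGR2B of its group (64.2).

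Other genes related to these gave a mixed picture. Among 5 measured genes listed for Fc receptors and tyrosine-motif signalling (TYROBP, LAT2, FCER1A, FCGRT and PIGR), 0 rose and 1 fell with hypoxia in either drug arm. The list median was 0.055 in vehicle and -0.052 in ketamine fetuses, against -0.053 and -0.024 for all probes. The list mixes adaptors with antibody-carrying receptors, so its median does not describe a single pathway. TYROBP, the sister adaptor of FCER1G also called DAP12, measured 161 to 286 in hypoxia vehicle and 157 to 197 in normoxia vehicle fetuses, a log2 difference of 0.20 ± 0.21. FCGRT, the neonatal Fc receptor that carries IgG across epithelia, differed by -0.052 and FCER1A, the IgE-binding chain, by 0.055 in vehicle fetuses. FCER1A measured 19.3 to 120 in hypoxia ketamine and 18.2 to 30.5 in normoxia ketamine fetuses, and did not pass there. The one gene that fell was LAT2, a membrane adaptor downstream of such receptors, with log2 differences of -1.85 ± 0.56 in vehicle and -1.33 ± 0.52 in ketamine fetuses; it was not well above background on 1 hypoxia vehicle array.

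Of the 2 other C-type lectin receptors, CLEC4E, also called mincle and likewise an FCER1G partner in mice and humans, rose in vehicle fetuses by 3.25 ± 1.03. It measured 248, 211, 538 and 164 in hypoxia vehicle fetuses, against 24.1, 14.8 and 57.5 in normoxia vehicle fetuses. In ketamine fetuses it did not pass (1.57 ± 0.95): hypoxia ketamine replicate 2 was at 1492 and the other 3 at 38.7 to 46.5, against 22.8 to 51.1 in normoxia ketamine fetuses. CLEC7A, or dectin-1, which signals without FCER1G, differed by 0.39 ± 0.34 in vehicle and 0.27 ± 0.32 in ketamine fetuses.

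Among 4 other measured genes of T cell costimulation (CD80, CTLA4, CD40 and CD40LG), CD40 alone rose in vehicle fetuses, by 2.48 ± 0.96, and 0 did in ketamine fetuses. CD40, a receptor on antigen-presenting cells, was at 7859 in hypoxia vehicle replicate 4 and at 169 to 678 in the other 3 hypoxia vehicle fetuses, against 124 to 179 in normoxia vehicle fetuses. CD80, the sister ligand of CD86, differed by 0.26 ± 0.23 in vehicle and 0.24 ± 0.22 in ketamine fetuses. CTLA4 differed by 0.53 ± 0.36 in vehicle fetuses, and CD28 was not well above background on any array. Of the 4 measured MHC class II genes, which present antigen on the same cells, 0 passed in either arm, with medians of 0.82 in vehicle and 0.70 in ketamine fetuses.

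FCGR1A and CD86 are known as genes that interferon-gamma induces in human and mouse myeloid cells. Among 4 other measured genes tied to interferon-gamma, CXCL10, a chemokine, and IRF1, a transcription factor, rose in vehicle fetuses, by 3.35 ± 1.54 and 3.36 ± 1.05. CXCL10 rose in ketamine fetuses as well, by 3.15 ± 1.42, where IRF1 differed by 2.04 ± 0.97. IFNG itself differed by 0.74 ± 0.43 in vehicle fetuses and did not pass in either arm.

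Of 5 other monocyte and macrophage genes measured, CD14, IL1B and TNF rose in vehicle fetuses, by 0.95, 3.56 and 4.05, and TNF alone in ketamine fetuses, by 1.52. ITGAM, an integrin of myeloid cells that was well above background on 3 of the 15 arrays, differed by 0.53 and LYZ, lysozyme, by 0.52 in vehicle fetuses, and neither passed. In hypoxic fetuses ketamine against vehicle gave a fall of IL1B (-2.71 ± 0.72) and of TNF (-2.65 ± 0.62), and both passed in the interaction (-2.66 and -2.53), where none of the 5 genes studied here did. Whether the 5 genes differ from these cytokines in that respect was not tested.

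The fetuses with the most cytokine RNA were in part those with the most receptor RNA. In the hypoxia ketamine group IL1B (210.1) and TNF (507) were highest in replicate 2, as were all 5 genes. Hypoxia vehicle replicate 4 had the most TNF (2914) and the most FCGR1A of all fetuses. Other hypoxia vehicle fetuses differed in this. Replicate 1 had the most IL1B of all fetuses (2378) and 1014 for TNF, yet it was the lowest of its group for FCGR1A, FCER1G, CD86 and CLEC6A. Hypoxia vehicle replicate 3, highest for FCGR2B, FCER1G and CD86, had the least IL1B (134) and TNF (457) of its group. ITGB2, the integrin chain shared by leukocytes, measured 404, 1506, 2832 and 579 in hypoxia vehicle fetuses, against 639, 591 and 618 in normoxia vehicle fetuses, and did not pass in vehicle (0.70 ± 0.56) or ketamine fetuses (0.93 ± 0.52). It was highest in replicate 3, as FCGR2B, FCER1G and CD86 were, whereas replicate 4, highest for FCGR1A, and replicate 1 lay below all 3 normoxia vehicle fetuses.

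**Figure D4:**
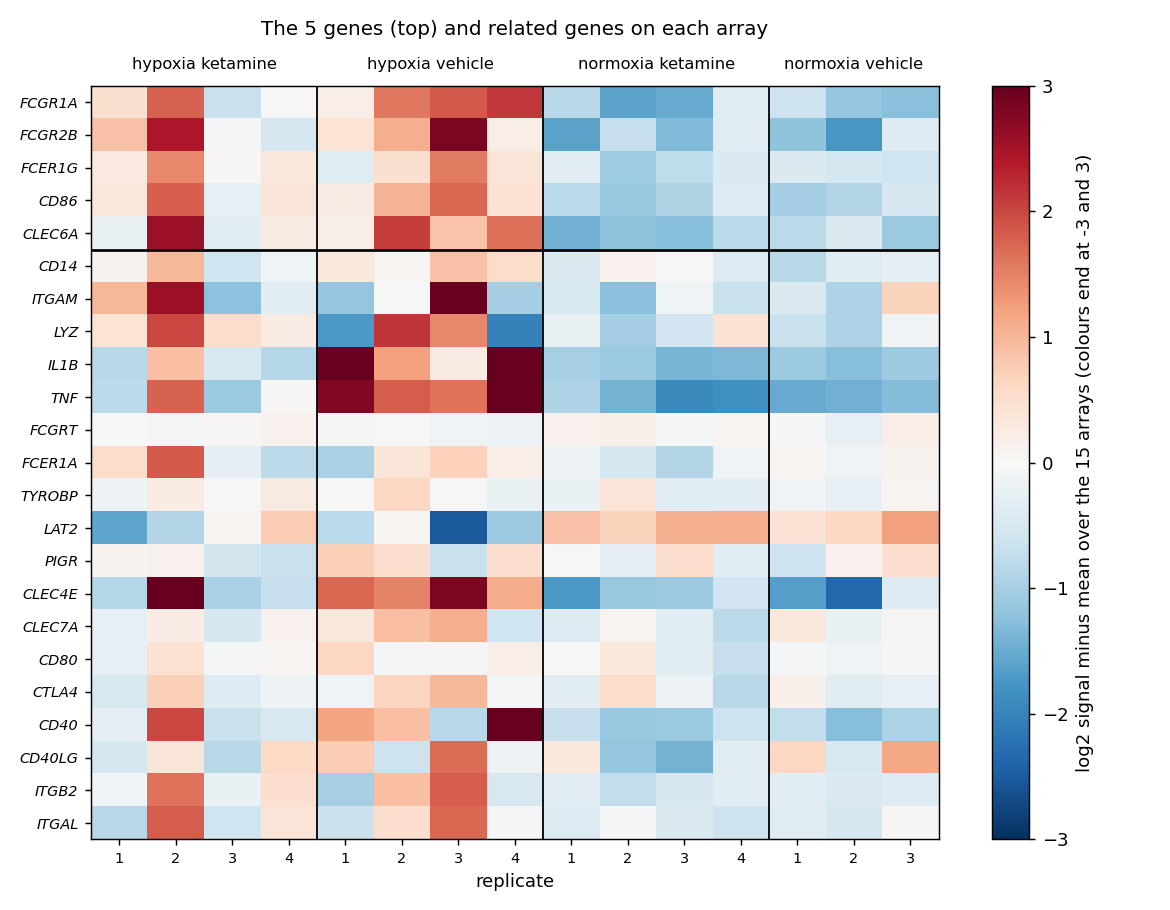
Log2 signal of the 5 genes (above the line) and of 18 measured related genes, each minus its mean over the 15 arrays, by group and replicate; red is above and blue below the mean. IL1B and TNF are highest in hypoxia vehicle replicates 1 and 4, while FCGR2B, FCER1G, CD86 and ITGB2 are high in hypoxia vehicle replicate 3 and hypoxia ketamine replicate 2.

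Markers of other blood cells were present on the same arrays, and their part in these results was not tested. As the mean centred log2 signal, the 5 neutrophil genes ran from -0.92 to 2.94 in hypoxia ketamine and -1.23 to 3.50 in hypoxia vehicle fetuses. In normoxia ketamine they ran from -1.91 to -0.69 and in normoxia vehicle fetuses from -1.29 to 0.44. Their highest values were in hypoxia ketamine replicate 2 and hypoxia vehicle replicate 3, each the highest of its group for FCGR2B, FCER1G and CD86. Their median log2 difference with hypoxia was 1.53 in vehicle and 2.53 in ketamine fetuses. Of the 5, 0 rose in vehicle and 1, CATHL3, in ketamine fetuses. The 6 T cell genes ran from -0.45 to 0.69 in hypoxia ketamine and -0.71 to 1.45 in hypoxia vehicle fetuses, against -0.82 to -0.017 in normoxia ketamine and -0.26 to 0.071 in normoxia vehicle fetuses, and CD5 alone rose, in both arms. Of 3 B cell genes, IGHM alone rose, in vehicle fetuses (3.19 ± 1.08). SELP, the selectin of platelets and endothelium, rose in vehicle fetuses (4.85 ± 1.15), where the endothelial receptor KDR fell in both arms (-0.38 ± 0.14 in vehicle and -0.35 ± 0.13 in ketamine fetuses). Of 3 erythroid genes, 1 NK cell gene and 1 dendritic cell gene, 0 passed in either arm. Among T cell markers CD4 and CD28 were not well above background on any array, and MS4A2, the mast cell chain of the IgE receptor that also pairs with FCER1G, was so on 1.

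By likeness over the 15 arrays, the 5 genes stood at ranks 1 to 29 from each other among 853 other named genes. FCER1G and CD86 were each the nearest to the other (r = 0.948), and CD86 was also the nearest to FCGR2B (0.937). FCGR1A was nearest to PLAUR, the urokinase receptor (0.924), then to CLEC6A (0.910) and CD86 (0.902), and CLEC6A was nearest to FCGR1A, then to the immunoproteasome subunit PSMB8 (0.886) and to CD86 (0.876). The genes next to FCGR2B after CD86 were CLEC4E (0.898) and the glycolytic enzyme LDHA (0.889), and those next to FCER1G were PTGS1, a cyclooxygenase (0.900), and ITGB2 (0.898). FCGR2B and CLEC6A were the least alike of the 5 (0.756). These correlations share the 4 groups: once group means were removed, FCER1G with CD86 was at 0.896 and FCER1G with ITGB2 at 0.914, while FCGR2B with CLEC6A was at 0.417.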

How the data were processed

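RNA of 15 fetal kidney cortices was read on 1-colour Agilent ovine arrays. Per the file headers, Feature Extraction 10.1.1.1 subtracted background within each array, and the deposited intensity is on a linear scale. The authors' deposited value table holds log2 values with column medians of 8.98 to 8.99. Per the submitters' processing notes limma was used; its version was not given in the sources used here.

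Outlier spots were left out, and the other spots of a probe were averaged as log2 of the processed intensity and set relative to each array's 75th percentile. Probes well above background on at least 3 of 15 arrays (12927) were tested in limma 3.58.1 (R 4.3.3) with 1 mean per group over all arrays, 5 contrasts and two-sided tests, at an unadjusted p of at most 0.05 and after Benjamini-Hochberg adjustment over all probes. The brightest probe stood for a gene. Gene names were found for 1570 probes (977 genes): 703 by accession and 125 by gene ID through the sheep RefSeq table (assembly ARS-UI_Ramb_v3.0), 728 by the array's own name and 14 by the array's description. Named were all member probes, the 3 nearest genes of each and, from the related lists, called genes and defining markers. The fit was tested on simulated data.

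The members and the lists of related genes were chosen with earlier results of these data known. The scaling was changed once after its output had been seen. Same-numbered arrays correlated at -0.292 to 0.370 (3 of 21 pairs over 0.1), so replicate numbers were not taken as pairs. Alternatives covered scaling, background, filter, slide, array weights, the value table and arrays left out.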

Additional observations from a re-analysis of the deposited data

How the results depend on the processing

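In vehicle fetuses 5 genes rose with hypoxia; 3 passed within slide 1, 1 within slide 2, where a lone normoxia vehicle array was assumed to vary like the other groups, and 4 to 5 with 1 array left out. In ketamine fetuses 5 rose; 1 passed within slide 2, 0 without the arrays with placental lactogen and 4 to 5 with 1 array left out. FCGR2B alone was also lost there within slide 1 (2.11) and without the arrays that stood apart (1.1). For ketamine against vehicle in hypoxia the count of 0 became 1 within slide 2, 1 with array weights, 2 without the arrays with placental lactogen, 4 without the arrays that stood apart and 0 to 3 with 1 array left out. Of all 12927 probes, 785 passed in this comparison with all arrays, in either direction. In those settings, in the same order, 876, 998, 1461, 1247 and 486 to 1606 probes passed, so more of the whole array was called in most of them too. The count of the 5 genes stayed at 0 to 1 for the interaction and at 0 in normoxia with 1 array left out. With the replicate block the counts were 5, 5, 0, 0 and 0, as with all arrays, and the block changed no call of the 5 genes. No rise with hypoxia changed sign under any alternative run. Fewer arrays were fitted within a slide.

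Differences that did not pass changed sign as follows. In hypoxia, ketamine against vehicle turned to 0.031 for FCGR2B with normexp background correction and to 0.32 for FCGR2B and 0.35 for CD86 within slide 1; FCER1G turned to -0.0025 with quantile scaling, -0.44 within slide 2, -0.17 with array weights, -0.30 without the arrays with placental lactogen, -0.35 without those that stood apart and -0.00016 with the 75th percentile over averaged probes, the scaling run first. With 1 array left out the ranges were -1.01 to 0.13 for FCGR2B, -0.30 to 0.36 for FCER1G and -0.69 to 0.0053 for CD86. In normoxia FCGR1A turned to 0.021 with slide as a block, 0.32 within slide 2, 0.044 in the deposited value table and 0.078 without the arrays with placental lactogen; FCGR2B to -0.14 with normexp, -0.44 within slide 2 and -0.13 with array weights; CD86 to 0.045 with quantile scaling, 0.012 with the replicate block, 0.0040 with array weights and 0.15 without the arrays with placental lactogen; and CLEC6A to 0.078 within slide 2. Left-out ranges were -0.30 to 0.14 for FCGR1A, -0.20 to 0.49 for FCGR2B, -0.23 to 0.0065 for FCER1G and -0.14 to 0.14 for CD86. The interaction turned to 0.17 with normexp and 0.00059 within slide 1 for FCGR2B, to 0.37 for CD86 and 0.27 for CLEC6A within slide 1, and for FCER1G to -0.43 within slide 2, -0.052 with array weights, -0.23 without the arrays with placental lactogen and -0.22 without those that stood apart. Left-out ranges were -1.13 to 0.0085 for FCGR2B, -0.17 to 0.48 for FCER1G, -0.68 to 0.018 for CD86 and -0.88 to 0.093 for CLEC6A. The cause was not tested. The dimmer CD86 probe was not well above background on normoxia vehicle replicate 1, which limits its fold.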
